A study of Macaca mulatta with 4 samples.

Results

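The inner part of rhesus macaque chromosome 11 was described as 10-kb bins, taken after leaving out the first and last 5 Mb of the 133211797 bp that the deposited intervals span. These were 12321 bins, from position 5000001 to 128210000 of the rheMac8 build, of 283406 bins in the whole series. The chromosome had been chosen because its H3K27me3 coverage lay above the autosomal level in both AG libraries and below it in both GG libraries. The difference between AG and GG coverage along it is therefore a description, and nothing is read from the counts of a bin-by-bin fit given further on. The 100 bins between 36 and 37 Mb were treated apart, which left 12221.

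H3K27me3, trimethylation of lysine 27 on histone H3, is written by the Polycomb repressive complex PRC2 and is known for keeping developmental genes silent, often in broad blocks of chromatin. In mammalian preimplantation embryos the mark can differ between the maternal and the paternal genome, and in some species it serves as a form of imprinting that does not depend on DNA methylation. It was mapped by CUT&RUN, in which micrococcal nuclease, tethered to the mark through protein A and an antibody, cuts out nearby DNA for sequencing. The samples were macaque morulae, 2 libraries labelled AG and 2 labelled GG. The series names them androgenetic embryos, which carry a nuclear genome of paternal origin, and gynogenetic embryos, which carry one of maternal origin. The sources used here do not state sex, parents or the number of embryos per library, and nothing says that replicates were separate embryo pools. The spread between 2 libraries may therefore be technical.

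Each file lists intervals left after filtering to islands called by SICER, with no tag counts, so depth is unknown. Islands were called with a window of 200 bp and a gap of 200 bp in AG and a window of 300 bp and a gap of 1200 bp in GG, so calling settings and genotype cannot be told apart. Covered bases over the whole genome came to 13.4 Mb in AG replicate 1, 17.1 Mb in AG replicate 2, 223 Mb in GG replicate 1 and 207 Mb in GG replicate 2. For this reason coverage of chromosome 11 was read within each library, against the inner bins of the other 19 autosomes, before the groups were set side by side. An exact two-sided permutation test over these 4 libraries cannot go below p = 0.333.

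The AG excess on chromosome 11 came largely from 1 Mb. Of the inner bases of chromosome 11, AG replicate 1 covered 0.575%, AG replicate 2 0.693%, GG replicate 1 5.67% and GG replicate 2 4.41%. The other 19 autosomes were covered to 0.383% and 0.498% in AG and to 6.91% and 6.20% in GG. Chromosome 11 thus lay at 1.45 ± 0.0759 times the level of the other autosomes in AG and at 0.766 ± 0.0786 times in GG (SD, n = 2 each). Both AG libraries were above 1 and both GG libraries below it, which is what the choice of the chromosome required. Without 36 to 37 Mb, AG replicates 1 and 2 stood at 1.04 and 1.02 times that level and GG replicates 1 and 2 at 0.807 and 0.709 times. Away from this window the AG libraries were therefore close to the autosomal level, and the GG shortfall was nearly unaltered. The difference between the groups was 0.681 with the window and 0.270 without it.

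**Figure D1:**
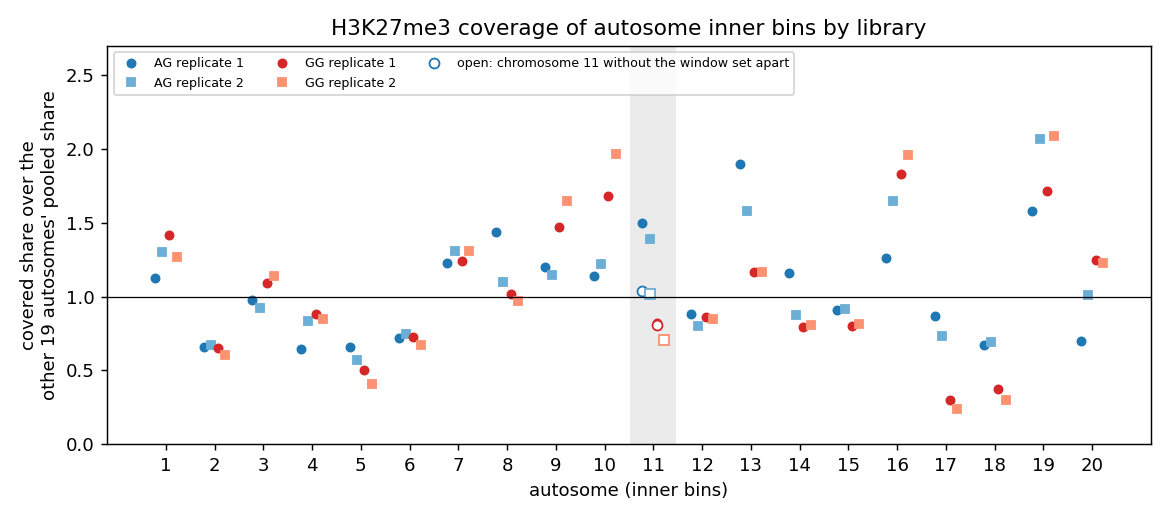
Covered share of each autosome's inner bins, divided in each library by the pooled share of the 19 autosomes other than chromosome 11 (y axis; 1 is that level). Each point is 1 library, circles for replicate 1 and squares for replicate 2. Open symbols give chromosome 11 (shaded) without its 36-37 Mb window, where AG drops from 1.5 and 1.39 to 1.04 and 1.02.

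Dropping the highest window of 1 chromosome and not of the others is an uneven comparison. When every autosome lost its own 1-Mb window of highest AG coverage, an alternative chosen after the data were seen, chromosome 11 stood at 1.16 times the others in AG and 0.769 times in GG. It then ranked 7 of 20 from the highest in AG, against 4 of 20 with all windows. In GG it ranked 15 of 20 both ways. The step in AG relative to GG was the largest of the 20 autosomes with all windows kept, ahead of chromosome 13 at 0.568. Without each autosome's top AG window it was 0.395 and ranked 2 of 20, below chromosome 17 at 0.457. This order is a description of how the chromosome was picked and was not tested.

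Coverage was much alike on both sides of the 5-Mb limits in GG. The Mb just inside the 5-Mb limit was covered to 52.6% and 56.2% in GG replicates 1 and 2, and the Mb just outside it to 48.7% and 50.2%. In AG these were 1.40% and 1.17% inside and 1.52% and 1.78% outside. At the far end the Mb just inside was covered to 22.3% and 15.9% in GG, and the Mb just outside to 17.3% and 14.6%. AG was less alike across the far limit, at 0.441% and 0% inside and 1.51% and 1.38% outside. The limit thus cuts through dense GG chromatin at the start of the chromosome.

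The first 50% of covered bases lay in fewer windows in AG than in GG. Of the 124 windows of 1 Mb in the inner span, the last of them incomplete, the highest window alone held 31.2% of the bases in AG replicate 1, 27.7% in AG replicate 2, 7.53% in GG replicate 1 and 10.4% in GG replicate 2. It took 3 and 4 windows to reach 50% of the bases in the AG replicates, and 13 and 9 windows in the GG replicates. Without 36 to 37 Mb it took 5 and 7 windows in AG and 12 and 9 in GG, and the highest remaining window held 18.6% and 18.1% in AG and 7.72% and 10.5% in GG. The gap between the groups was thus narrower away from that window. AG replicates 1 and 2 had no covered base in 61 and 47 windows, and GG replicates 1 and 2 in 22 and 41. In 20 windows no library had a base. The share held by an autosome's top AG window was highest for chromosome 11 of all 20 autosomes in both AG libraries, with chromosome 8 next at 26.6% and 25.1% and a median of 12.2% and 10.5% over the others.

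**Figure D2:**
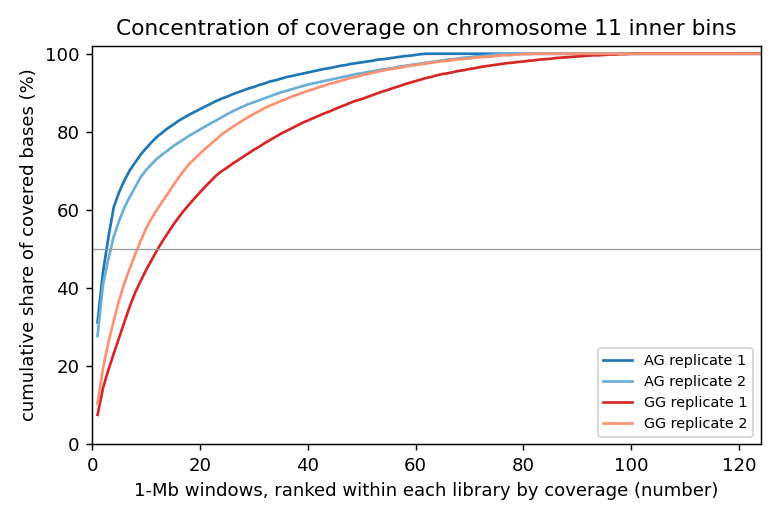
Cumulative share of covered bases (y axis, percent) held by the 1-Mb windows of chromosome 11, ranked from the most to the least covered within each library (x axis, number of windows). The AG curves reach 50% (grey line) after 3 and 4 windows and the GG curves after 13 and 9; the 36 to 37 Mb window is included.

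Most 1-Mb windows were more covered in GG, and a few in AG. Of the 104 windows with a base in any library, both GG libraries exceeded both AG libraries in 79 (76.0%), against 80.1% of the windows of all autosomes. Both AG libraries exceeded both GG libraries in 3 windows (2.88%, against 2.62% over all autosomes). Apart from 36 to 37 Mb these were 69 to 70 Mb and 123 to 124 Mb, with at most 0.250% covered in AG and 0 in GG. Since the rule used this contrast, nothing is read from these counts. Across windows the AG libraries tracked each other (Pearson r = 0.963 without 36 to 37 Mb, n = 123), as did the GG libraries (r = 0.975). The 4 pairs across the groups ranged from 0.457 to 0.50 without that window and from 0.250 to 0.348 with it. Pearson r leans on the few densest windows. By rank (Spearman), without that window, the AG libraries stood at 0.785 and the GG libraries at 0.899. The pairs across the groups ranged by rank from 0.525 to 0.646 without that window and from 0.532 to 0.650 with it. Windows along a chromosome share library and neighbourhood, so these values carry no p.

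**Figure D3:**
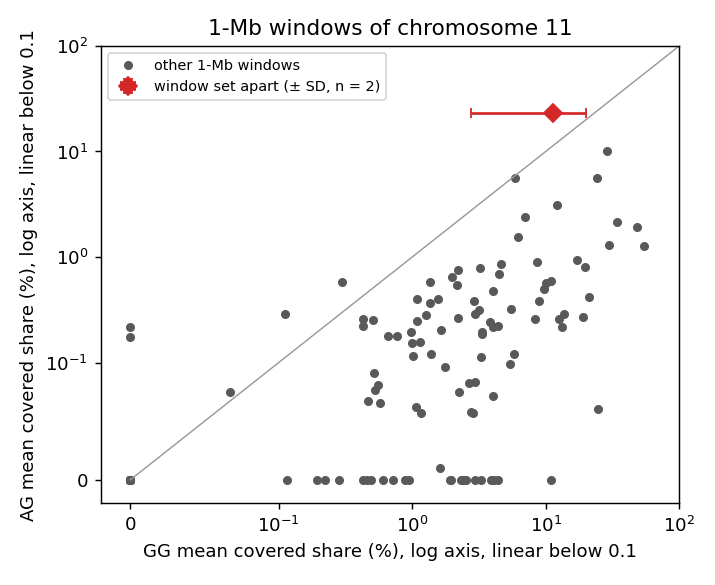
Mean covered share of each 1-Mb window of chromosome 11 in GG (x axis) and AG (y axis), in percent on log axes that are linear below 0.1; the line marks equal shares. The window set apart, 36-37 Mb (diamond, ± SD, n = 2), has 22.9% in AG and 11.3% in GG, while most other windows lie under the line.

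The 36 to 37 Mb window was the most covered of chromosome 11 in both AG libraries. AG replicates 1 and 2 covered 22.1% and 23.7% of it, or 57.6 and 47.5 times the level of the other 19 autosomes in the same libraries. GG replicate 1 covered 17.4% and GG replicate 2 only 5.26%, which are 2.51 and 0.847 times the level in those libraries. The AG libraries were alike here and the GG libraries were not, so the GG mean of 11.3% has an SD of 8.56 (n = 2). Some other autosomes had a top AG window near this level. AG replicates 1 and 2 covered 19.7% and 18.5% of that on chromosome 8 and 12.7% and 19.1% of that on chromosome 7. On chromosome 13 they covered 17.1% and 17.0%, and there too the GG replicates differed, at 9.65% and 1.43%. On chromosome 11 the windows beside 36 to 37 Mb, 35 to 36 and 37 to 38 Mb, held no covered base in any library. Whether mappability or copy number bears on the level of 36 to 37 Mb was not tested.

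Within the window the AG coverage formed 2 blocks with nothing between them. From 36160001 to 36430000 (27 bins) AG replicates 1 and 2 covered 44.2% and 48.2%, with 24 bins marked in both, a marked bin being one with at least 450 covered bases. From 36650001 to 36960000 (31 bins) they covered 32.8% and 34.3%, with 23 bins marked in both. The 220 kb between the blocks were bare in all 4 libraries. GG replicate 1 covered 37% of the first block and 20.9% of the second, GG replicate 2 covered 7.78% and 8.07%. Both GG libraries also had a covered patch ahead of the first block, in 2 bins where AG had none.

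**Figure D4:**
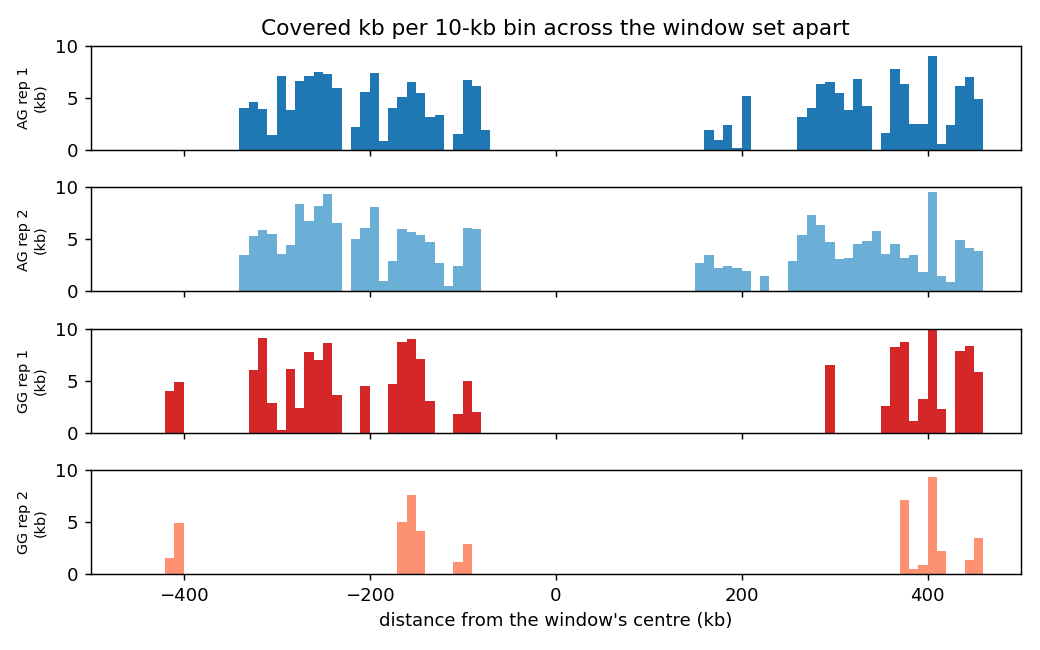
Covered kb in each 10-kb bin (y axis, at most 10) of the 36-37 Mb window against distance from its centre (x axis, kb), 1 panel per library. Both AG libraries fill the same 2 blocks, GG replicate 1 fills parts of both, and GG replicate 2 is marked in 14 bins.

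Bin by bin, the AG libraries were in close accord in this window. They shared 47 marked bins, with a Jaccard index (shared bins over bins marked in either) of 0.870, against 0.470 over the rest of chromosome 11. For GG the index was 0.452 in the window and 0.608 over the rest. At the level of bases, 61.2% of what AG replicate 1 covered in the window was also covered in AG replicate 2, against 63.7% over the rest of the chromosome. In the other direction, 57.1% of the AG replicate 2 bases in the window were covered in AG replicate 1, against 50.3% over the rest. The Jaccard index of the AG libraries counted over bases was 0.419 in the window and 0.391 over the rest.

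What GG replicate 2 covered here lay almost wholly within GG replicate 1. Of the GG replicate 2 bases in the window 93.1% were covered in GG replicate 1, and 17 of the 31 bins marked in GG replicate 1 had no base in GG replicate 2. Of the AG replicate 1 bases in the window 48.5% were covered in GG replicate 1 and 14.8% in GG replicate 2. Over the rest of chromosome 11 these shares were 74.3% and 71.8%. AG coverage at 36 to 37 Mb therefore overlapped GG coverage less than elsewhere on the chromosome in both GG libraries, and by very different amounts in each.

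The widest AG stretch of the chromosome, meaning a stretch inside domains of both AG libraries once intervals at most 1500 bp apart were joined, lay in the first block. It ran from 36233371 to 36268592 and was covered to 71.9% and 83.1% in AG, to 69.9% in GG replicate 1 and to 0% in GG replicate 2. In the same block 36397559 to 36416526, the fourth widest, had 73.7% and 72.7% in AG with 45.3% and 20.2% in GG. A narrower one in the second block, from 36898690 to 36910557, had 90.0% and 95% of its bases covered in AG and 99.6% and 87.7% in GG. In the same block 36774149 to 36787703 had 65.0% and 80.5% of its bases covered in AG and 0% in both GG libraries. Stretches covered in all libraries, in AG and GG replicate 1, and in AG alone thus lay within 1 Mb of each other. The runs of 3 or more adjacent bins marked in both AG libraries and bare in GG were 3 in number, and all lay in the second block: 36660001 to 36690000, 36760001 to 36790000 and 36800001 to 36840000.

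Over the whole inner span, AG marked 225 and 323 bins in replicates 1 and 2 and GG marked 1276 and 860. Both AG libraries marked 190 bins (1.54%, against 1.14% on the other 19 autosomes) and both GG libraries 805 (6.53%, against 9.04%). Without 36 to 37 Mb these were 143 (1.17%) and 791 (6.47%). In bins, as in bases, AG away from that window was near the level of the other autosomes, and GG was below it. The comparison is uneven here too, since the other autosomes kept their top AG windows. With those left out as well, AG in bases stood at 1.16 times the others.

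Of the 190 AG bins, 117 (61.6%; exact binomial 95% interval 54.3 to 68.5, counting error only) were marked in both GG libraries, 45 (23.7%, 17.8 to 30.4) had no covered base in GG and 28 lay between. These intervals take bins as independent, though many lie next to each other, so they are likely too narrow. On the other 19 autosomes 63.6% of AG bins were shared and 26.2% had no GG base. The shared bins were 14.5% of the GG bins, against 8.01% on the other autosomes and 15.6% on chromosome 17, the highest. Choosing a chromosome high in AG and low in GG favours a high share of this kind, so nothing is read from it. Without 36 to 37 Mb the shared part of the AG bins was 73.4% and the part without a GG base was 19.6%. Inside the window 12 of 47 AG bins (25.5%) were shared and 17 (36.2%) had no GG base. The choice of GG library mattered: 25 AG bins were marked in GG replicate 1 and not in GG replicate 2, and 1 the other way round.

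The shared bins were partly covered in AG and nearly full in GG. The median shared bin had 2761 (replicate 1) and 2924 (replicate 2) bases covered in AG, and 8751 (replicate 1) and 8819 (replicate 2) in GG. The AG bins with no GG base held a median of 2137 and 2220 bases in AG. Of these 45 bins 17 lay between 36 and 37 Mb, with medians of 3844 and 3466. Without that window the medians in AG were 1622 and 1693 for bins with no GG base and 2676 and 2852 for shared bins. Of the GG bins 613 (76.1%) had no AG base, against 82.4% on the other autosomes. The choice of the chromosome favours a low share here, so nothing is read from the difference.

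AG bins fell into a few clusters and many isolated bins. Grouping bins marked in both AG libraries at most 50 kb apart, a rule chosen after the data were seen, gave 7 clusters of 5 or more bins. They held 88 of the 190 AG bins (46.3%) and 59.2% and 51.1% of the covered bases in AG replicates 1 and 2. In GG the same clusters held 8.92% and 9.91% of the bases. The clusters were drawn from AG bins alone, so a larger share in AG than in GG was built in. On the other autosomes such clusters held 0% to 50.6% of the AG bins, with chromosomes 13 and 17 above chromosome 11. Another 64 AG bins of chromosome 11 stood alone.

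The clusters differed in how GG covered them. Outside the 36 to 37 Mb window the largest ran from 52590001 to 52810000 and had 38.5% and 46.1% of its bases covered in AG and 90.4% and 92.4% in GG, with 19 of 19 AG bins shared. The 1-Mb window that holds it, 52 to 53 Mb, was the second most covered in AG (9.07% and 11.2%). Clusters from 114440001 to 114530000 and from 114700001 to 114780000 were covered to between 30.1% and 34.7% in AG. The first of these was covered to 84.0% and 91.0% in GG, the other to 38.0% and 49.0%. These clusters hold the second and the fifth widest AG stretches of the chromosome. The stretch from 114442244 to 114462675 reached 79.3% and 87.9% coverage in AG with 98.5% and 97.8% in GG, and that from 52629012 to 52645487 reached 70.3% and 83.6% in AG with 100% in both GG libraries. In all of these clusters the AG coverage sat largely where GG was covered too.

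The cluster from 8330001 to 8430000 was mixed. Its 1-Mb window, 8 to 9 Mb, ranks next by AG mean (5.65%), close to 114 to 115 Mb (5.55%). In AG replicate 2 alone 114 to 115 Mb was the higher of the pair, at 5.62% against 4.97%. The cluster from 8330001 to 8430000 had 60.8% and 48.0% of its bases covered in AG and 32.4% and 40.5% in GG. A stretch from 8370140 to 8389758 within it had 76.1% and 73.3% of its bases covered in AG and 0% in both GG libraries. A short way on, 8409547 to 8420849 had 96.1% and 95.5% of its bases covered in AG and 85.7% and 91.0% in GG. Of the 9 bins of the cluster marked in both AG libraries, 5 were shared with GG and 3 had no GG base. Between 124 and 125 Mb, a window singled out after its values were seen, 8 of 11 AG bins had no GG base, although GG covered 13.3% and 11% of that Mb. AG and GG coverage lay largely side by side there, not on top of each other.

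AG coverage of the windows densest in GG varied widely. The windows highest in GG were 5 to 6 Mb (54.4% ± 2.55), 51 to 52 Mb (48.2% ± 1.43) and 113 to 114 Mb (34.2% ± 1.65; SD, n = 2 each). AG covered 1.28% ± 0.160, 1.91% ± 0.640 and 2.13% ± 0.0264 of these windows. From 127 to 128 Mb GG covered 28.9% and 20.3%, and AG 0.121% and 0%. This was the lowest AG mean (0.0604%) of the 8 windows with a GG mean of 20% or more. The highest were 10.1% in 52 to 53 Mb, where the GG mean was 28.7%, and 5.55% in 114 to 115 Mb, where it was 24.4%.

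Wide GG stretches differed among themselves in AG coverage. The widest, 51161313 to 51485218 (323906 bp), had 92.3% and 96.5% of its bases covered in GG and 2.82% and 4.93% in AG, and 21 of its 31 whole bins had no AG base. The second, 4936887 to 5223642, crosses the 5-Mb limit and was counted because its midpoint lies inside; it had 92.1% and 96.3% of its bases covered in GG and 4.27% and 3.15% in AG. The third, 52616412 to 52779647 (163236 bp), had 96.1% and 96.8% of its bases covered in GG and 44.2% and 50.6% in AG, and 13 of its 15 whole bins were marked in both AG libraries. GG coverage was thus near full in all of them, while AG coverage of the third was many times that of the others. The fourth (5324919 to 5455587) and the fifth (51029989 to 51112453) had at most 0.703% AG coverage.

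**Figure D5:**
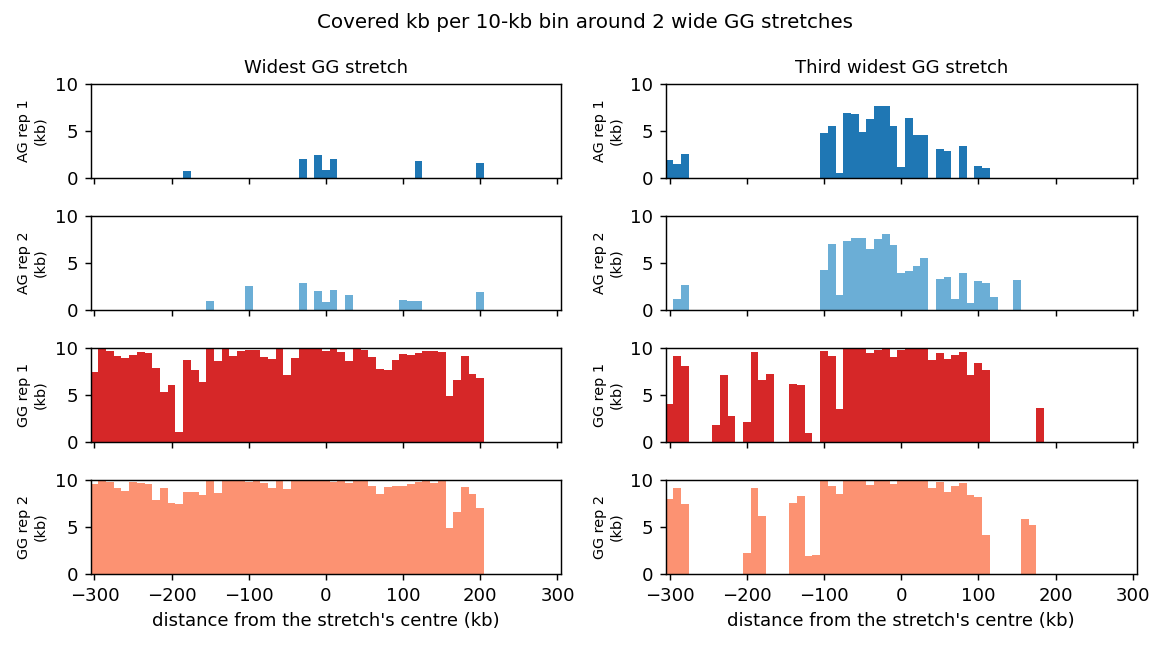
Covered kb in each 10-kb bin (y axis, at most 10) against distance from the centre (x axis, kb) of the widest GG stretch (left) and the third (right), 1 row per library. GG bins within the stretches hold at least 7067 (left) and 8684 (right) bases, whereas AG bins reach at most 2871 bases in the left stretch and 8081 in the right.

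Wider GG stretches, which offer more bases, more often held some AG coverage. Of 345 GG stretches 69 had a base in both AG libraries and 234 (67.8%) had none in either. Among those under 5 kb 10.2% of 59 had a base in both AG libraries, and among those of 50 kb and over 5 of 11 did. Over the width classes AG replicate 1 covered 5.25% to 7.81% of the summed stretch width, and AG replicate 2 covered 7.82% to 9.85%. In the class of 50 kb and over 1 stretch weighed heavily. This was the third widest, with 44.2% and 50.6% AG coverage, while no other of the 11 exceeded 8.92% and 9.51%. The like values over the classes therefore do not show that AG covered wide and narrow stretches alike.

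Domain widths on chromosome 11 followed those of the other autosomes in GG. The N50 (domains of this width or more make up 50% of the total domain width) was 20165 and 26139 bp in GG replicates 1 and 2, against 20389 and 26391 bp on the other 19 autosomes. In AG it was 10459 and 4921 bp, against 4302 and 3433 bp. Without 36 to 37 Mb it was 5109 and 3652 bp, so most of the AG excess in width also lay in that window. The other autosomes kept their top AG windows in this comparison, which makes it uneven. Domains of at least 100 kb numbered 4 and 9 in GG replicates 1 and 2 and 0 in both AG libraries. The wider gap in the GG calls can lengthen GG domains, so AG and GG widths are not on an equal footing. Single intervals had a median length of 211 and 269 bp in AG and of 300 and 362 bp in GG, against 199, 250, 302 and 355 bp on the other autosomes.

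The GG libraries differed from each other on chromosome 11 mainly through bins marked in replicate 1 alone. Of the bins marked in GG replicate 1, 471 (36.9%) were not marked in GG replicate 2, and 459 of these had no base there. The share was 26.8% on the other autosomes. In the other direction 55 bins (6.40%) were marked in GG replicate 2 alone, against 7.86%. Low accord of the GG libraries was not particular to chromosome 11, whose GG Jaccard index of 0.605 ranked 17 of 20 from the highest. It was lower on chromosomes 5 (0.540), 17 (0.560) and 18 (0.515), where the relative GG level was lower too. Whether this accord follows GG coverage was not tested. Bins marked in replicate 1 alone held a median of 3370 bases, and those marked in both held 7180 in that library. Whole windows showed the same, with 19 covered in GG replicate 1 and not in replicate 2, and 0 the reverse. In AG 133 bins (41.2%) were marked in replicate 2 alone and 35 (15.6%) in replicate 1 alone, against 53.0% and 27.6% on the other autosomes.

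Most of the inner span was bare. In 10802 of 12321 bins (87.7%) no library had a covered base, against a median of 84.6% over the other autosomes. The longest bare stretches were 80670001 to 84440000 (3.77 Mb), 71120001 to 74060000 (2.94 Mb) and 58540001 to 61060000 (2.52 Mb). Bare stretches of at least 1 Mb numbered 25 and summed to 43.9 Mb. A bare bin is not thereby shown to lack the mark.

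In a limma fit over all bins of the genome, on log2 coverage scaled by library total, 873 of the 12321 inner bins had enough coverage to be tested. Of these 163 (18.7%) were higher in AG, against 10.7% of all tested bins, at a Benjamini-Hochberg adjusted p under 0.05. Higher in GG were 591 (67.7%), against 75.6%. Between 36 and 37 Mb, 43 of the 49 tested bins were called higher in AG and 2 higher in GG. Because coverage was scaled by library total, an AG call can fall on a bin with more covered bases in GG. All 591 GG calls had no AG base and 42 of the AG calls had no GG base, and such bins entered the test through the covered group alone. Without scaling 45 were higher in AG and 692 in GG, with medians over all tested bins of −4.32 unscaled and −3.47 scaled on the log2 scale. The contrast is the one the chromosome was chosen on, so a lean of the call shares toward AG was built in, and nothing is read from these counts. The largest AG differences were at 36300001 to 36310000, with 7437 and 8101 bases in the AG replicates and 0 in GG, and at 8370001 to 8380000, with 8061 and 6823 in AG and 0 in GG, followed by 8380001 to 8390000, 36780001 to 36790000 and 36820001 to 36830000. The largest GG differences were in bins full in both GG libraries and bare in AG, at 5130001 to 5140000, 5160001 to 5170000 and 9840001 to 9850000, followed by 51300001 to 51310000 and 5030001 to 5040000, which were nearly full. Bins were also counted without a model. Both AG libraries exceeded both GG libraries in 64 of the 1519 with a base (4.21%, against 2.71% over all autosomes). Of these, 27 lay between 36 and 37 Mb, and without that window the share was 37 of 1463 (2.53%). Both GG libraries exceeded both AG libraries in 804 (52.9%, against 62.1%), and without that window in 799 (54.6%).

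Genes and sequences under these bins were not analysed here, since no genome or annotation of rheMac8 was used. In the RefSeq table of another macaque assembly, T2T-MMU8v2.0, chromosome 11 carries 1106 protein-coding genes. All 26 of a list of developmental regulators fixed for this chromosome are on it, among them 9 HOXC homeobox genes, which pattern the body axis, and TBX3 and TBX5, T-box factors of limb and heart. The list was fixed for this chromosome, so their being on it is no finding, and none of these genes was placed on the bins.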

How the data were processed

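H3K27me3 CUT&RUN was analysed in 2 AG and 2 GG macaque morula libraries, grouped by their titles. Reads had been handled with SICER 1.1, deepTools 3.3.1, Bowtie2, SAMtools and Trim Galore on rheMac8, per the submitters' processing notes; SICER settings (E value 0.001) come from the names of the deposited files. The values deposited by the authors are interval starts and ends with no counts, so depth and the precision it gives are unknown. No pair of libraries had more than 68 identical intervals. The region and the lists were chosen with earlier results of these data known.

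Covered bases were summed in 10-kb bins. A bin was marked at 450 covered bases, or 3 intervals of the most common length of 150 bp. Intervals separated by 1500 bp or less were joined into domains, which needed 450 covered bases. A domain or stretch was assigned by its midpoint. The limma 3.58.1 fit (lmFit, eBayes with trend, R 4.3.3) took bins in which 2 or more libraries reached 750 covered bases. It used a prior of 300 bases scaled to the totals and no replicate block. A trial on simulated data had near-equal library totals and few changed bins, unlike these libraries, so it does not vouch for the calls here. Named regions are the 5 widest GG and AG stretches, the 3 highest 1-Mb windows per group, runs of 3 or more AG bins without a GG base, and, past the limma threshold, the 5 bins at each extreme of log2 difference; regions named beyond that rule (AG clusters, narrower AG stretches, 124 to 125 and 127 to 128 Mb, bare stretches) were chosen after their values were seen. Alternatives covered the measure, chromosome ends, bin size, thresholds, calling rule, scaling, prior, filter, block and each library left out. Python 3.11.15 was used with scipy 1.17.1, pandas 2.3.3, numpy 2.4.6 and matplotlib 3.10.9.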

Additional observations from a re-analysis of the deposited data

How the results depend on the processing

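No alternative turned the direction of the relative level of chromosome 11 in AG or GG, or of their difference. For counts, shares and widths only the size of a change was judged, so no reversal could be recorded. Of the 62 values under alternatives other than a left-out library, 20 moved beyond the spread between replicates, the counting interval or 1.5 times a count. Some could not move, such as the part without a GG base (23.7%) when only the rule for a shared bin was altered. The level of chromosome 11 relative to the other autosomes in AG, and its difference from GG, was 1.12 and 0.346 by share of marked bins, 1.32 and 0.538 with chromosome ends kept, 1.03 and 0.270 without 36 to 37 Mb, 1.20 and 0.372 over the 3922 most covered bins of each library, and 1.16 and 0.395 without each autosome's top AG window. Intervals put under a common clustering rule (at most 200 bp apart, clusters of at least 1000 bp) gave 1.51 and 0.743. Bins marked in both GG libraries numbered 1341 at 5 kb and 525 at 20 kb. The shared part of the AG bins was 75.3% when either GG library counted and 73.4% without 36 to 37 Mb. The limma fit called 45 bins higher in AG without scaling and 82 with median-of-ratios factors. With intervals joined within 200 bp the AG and GG N50 were 2658 and 7326 bp, and within 3000 bp they were 11788 and 30770 bp.

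With 1 library left out at a time, the relative level ranged from 1.39 to 1.5 in AG and from 0.710 to 0.821 in GG, with differences of 0.625 to 0.736. Marked bins ranged from 190 to 323 in AG (323 without AG replicate 1) and from 805 to 1276 in GG (1276 without GG replicate 2). The shared part of the AG bins was 52.3% to 74.7%, and the part without a GG base 24.7% to 37.4% (37.4% without GG replicate 1, 35.6% without AG replicate 1). The limma fit called 61 to 186 bins higher in AG (64 without GG replicate 1, 61 without GG replicate 2) and 567 to 602 higher in GG, fits in which the group with 1 library borrows its spread from the others. The N50 ranged from 4921 to 10459 bp in AG and from 20165 to 26139 bp in GG. The share of 36 to 37 Mb in the covered bases ranged from 27.7% to 31.2% in AG and from 0.968% to 2.48% in GG. The cause of these changes was not tested.

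Replicate numbers do not pair AG with GG by any label, and same-numbered libraries did not deviate together (r = -0.065 over 30536 bins). With the replicate block limma called 147 bins higher in AG and 589 higher in GG.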
